A study of Mus musculus with 7 samples.

Results

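The genes described here are the 3 members of the Gadd45 family (Gadd45a, Gadd45b and Gadd45g) and 6 genes of the p53 response (Trp53, Mdm2, Ccng1, Trp53inp1, Sesn1 and Phlda3), measured in regenerating mouse liver. All probes whose platform gene symbol is one of these 9 names were taken, which gave 19 of 45281 probes and 8 of the 19057 genes on the array. Trp53 itself was not analysed here. Of the 19 probes, 17 passed the filter on dim probes and were tested. Each sample was whole liver tissue of C57BL/6 mice taken 12 h after partial hepatectomy (PHx), an operation that takes away a share of the organ and lets the remnant grow back. The 4 KO samples came from mice deficient in the lymphotoxin beta receptor (genotype LTBR KO) and the 3 WT samples from wild-type mice, with 1 single-colour Illumina bead array per sample. Every sample had undergone PHx, so differences that preceded surgery and those that followed it cannot be told apart. The labels name no cell type for the deficiency and do not say whether the samples are from different mice. The p-values therefore cover the spread from sample to sample, some of which may be technical.

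GADD45 proteins are small nuclear proteins, made in response to DNA damage and other stress, which bind the replication clamp PCNA, the mitotic kinase CDK1 and the kinase MAP3K4 upstream of p38 and JNK. Gadd45a is a classical p53 target, whereas Gadd45b is induced by NF-kB and in mouse liver restrains the JNK activator MAP2K7 during regeneration. The transcription factor p53 is held low by the ubiquitin ligase MDM2, whose own gene it activates, and its targets stop the cell cycle, repair DNA, change metabolism or start cell death.

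Gadd45a ordered the arrays unlike Gadd45g and the Gadd45b probe ILMN_2900653. The other Gadd45b probe, ILMN_1246065, had all KO values below all WT values, as had the Gadd45a probe ILMN_2742152. A link between these values and the promoter sequences was not tested. The 250 bases before the 3 annotated starts are shown as a description. They are from RefSeq (GRCm38.p6), which held a window for 8 of the 9 genes. They are written 5′ to 3′ on the strand of the gene, with matches to 5 motifs in capitals. These motifs, searched on both strands, were the octamer ATTTGCAT, the CCAAT box, the E-box CACGTG, the TATA box TATAAA and the p53 half-site consensus, and none of their matches here overlap. The windows are chr6:67037408-67037657 on the minus strand for Gadd45a, chr10:80929841-80930090 on the plus strand for Gadd45b and chr13:51846425-51846674 on the plus strand for Gadd45g.
Gadd45a: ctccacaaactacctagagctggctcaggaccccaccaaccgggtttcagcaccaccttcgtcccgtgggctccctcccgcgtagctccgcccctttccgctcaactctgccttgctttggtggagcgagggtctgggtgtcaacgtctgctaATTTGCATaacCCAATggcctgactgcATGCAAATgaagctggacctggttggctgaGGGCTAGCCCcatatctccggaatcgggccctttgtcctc
Gadd45b: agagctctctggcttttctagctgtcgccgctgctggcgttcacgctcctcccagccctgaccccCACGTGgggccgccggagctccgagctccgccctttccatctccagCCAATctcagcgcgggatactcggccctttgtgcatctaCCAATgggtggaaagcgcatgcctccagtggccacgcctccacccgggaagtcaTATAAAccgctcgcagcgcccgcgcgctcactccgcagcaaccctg
Gadd45g: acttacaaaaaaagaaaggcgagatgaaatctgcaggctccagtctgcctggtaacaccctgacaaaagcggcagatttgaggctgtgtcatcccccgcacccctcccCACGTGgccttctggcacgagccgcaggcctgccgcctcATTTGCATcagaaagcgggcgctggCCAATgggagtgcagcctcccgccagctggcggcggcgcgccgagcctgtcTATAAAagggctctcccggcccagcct
The octamer occurred at 2 places in the Gadd45a window and at 1 in that of Gadd45g, against 1.6% of 32851 mouse windows of the same length with at least 1 match. The E-box and the TATA box each occurred at 1 place in the Gadd45b and Gadd45g windows, against 6.02% and 12.4% of windows. The CCAAT box was present in all 3 and in 33.8% of windows. A p53 half-site match lay in the Gadd45a window, starting 40 bases before the annotated start, and in 7.13% of all windows. The Trp53, Mdm2 and Ccng1 windows and 1 of the 2 Sesn1 windows also held one, and the windows of Gadd45b, Gadd45g and Phlda3 and the other Sesn1 window did not. These matches describe letters in a window and do not show binding.

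Per array, the deposited intensities ran from 72.6 to 30878 with a median of 91.1, and they were corrected for background and put on a log2 scale. A floor, the upper bound of the background, lay at an intensity of 93.8, or 5.001 on that scale. Probes that exceeded it on 3 or more arrays, 18423 in all, were tested with limma, with Benjamini-Hochberg adjustment over all of them, and 12 passed an adjusted p of 0.05. Precision is limited by having 7 arrays, and log2 differences had a median standard error (SE) of 0.19. Ltbr, the targeted gene, was measured by 1 probe. It gave log2 intensities of 6.63, 7.04 and 7.28 for WT, against 5.86, 6.23, 6.08 and 5.61 for KO, every KO value lying below every WT value (log2 difference -1.04, SE 0.20, adjusted p = 0.083). WT replicate 3 and KO replicate 3 stood apart, with scores at the opposite ends of the second principal component (-28.4 and 43.8), which held 26.5% of the variance. All 16 hepatocyte markers were tested. Apoa1 lay between 14.47 and 14.76 (log2 intensity) on the 7 arrays and Cyp2e1 between 13.88 and 14.39, whereas the probes of Alb (5.92 to 7.76), Tat (4.92 to 6.18) and Fgb (4.91 to 5.75) were dim, and those of Tat and Fgb fell below the floor on 1 or more arrays.

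Gadd45a had lower means in KO at both of its probes, Gadd45g swung widely within each genotype, and the 5 other p53 response genes with probes had group means that differed by at most 0.15 in size on the log2 scale. None of the 17 tested probes passed over all probes tested, where 0.0651% did. At an unadjusted p under 0.05, 2 of the 17 differed, both of Gadd45a and both lower in KO, against 14.3% of all probes in either direction and 7.41% lower in KO. The differences (KO minus WT, log2) ran from -0.77 to 0.60 with a median of -0.00, against 0.01 for all tested probes, and 8 lay above 0 and 9 below. The median absolute difference was 0.13, against 0.18 for all tested probes.

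**Figure D1:**
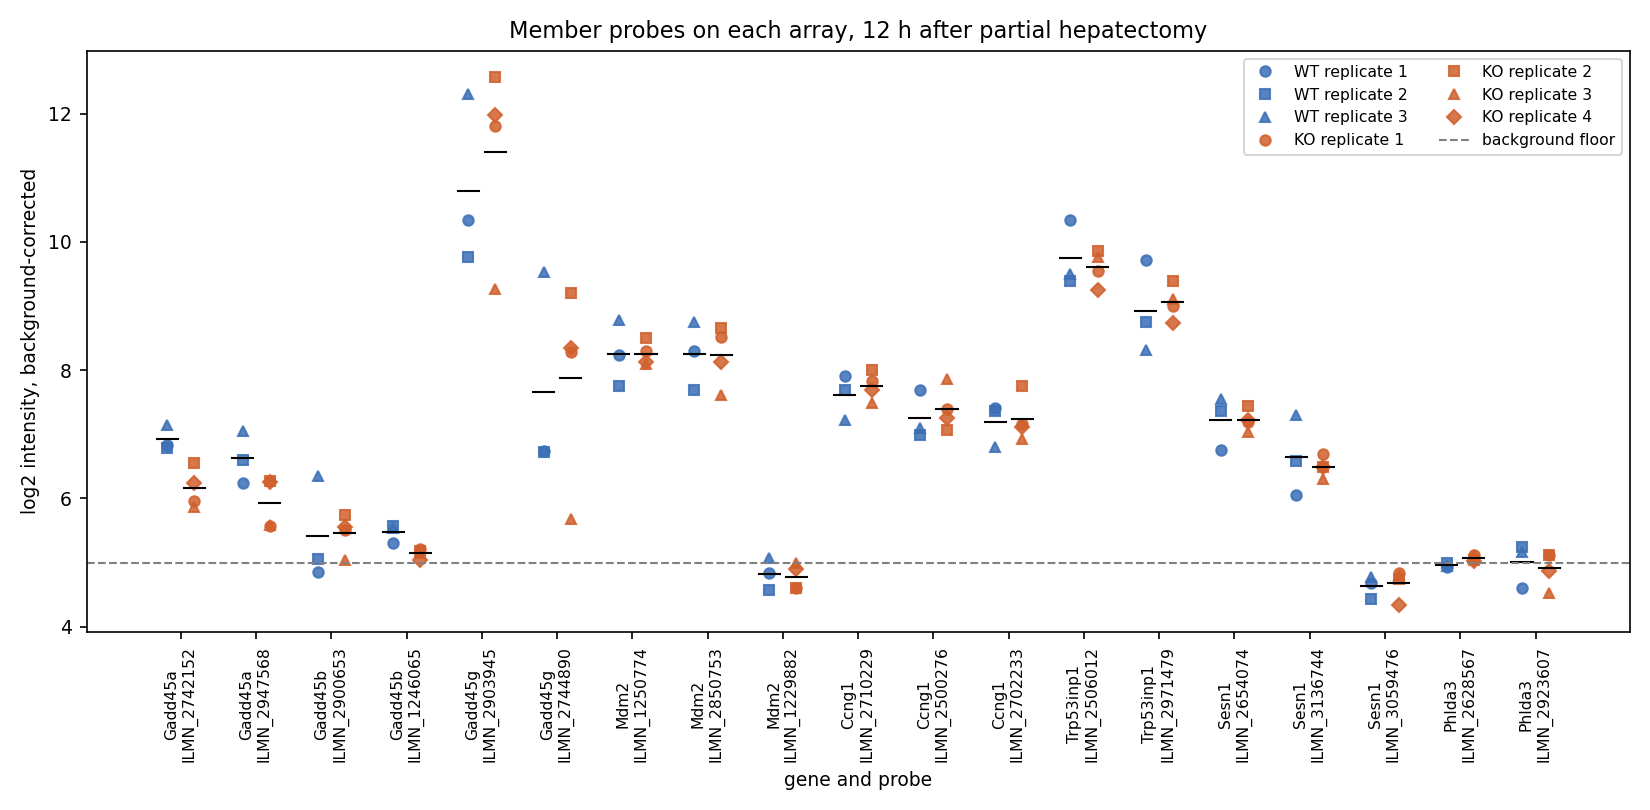
Log2 intensity (vertical axis, background-corrected) of each of the 19 probes (horizontal axis) on the 3 WT and 4 KO arrays, with bars at the group means and a dashed line at the background floor of 5.001. The Gadd45a means are lower in KO, the Gadd45g points are spread over more than 3 log2 units, and the groups overlap at the Mdm2, Ccng1, Trp53inp1 and Sesn1 probes.

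Gadd45a, whose protein inhibits the CDK1 kinase and takes part in the response to DNA damage, was measured by probes ILMN_2742152 and ILMN_2947568. At ILMN_2742152 the WT arrays had log2 intensities of 6.83, 6.79 and 7.15, and the KO arrays 5.96, 6.56, 5.87 and 6.24. The groups did not overlap there, with KO replicate 2 nearest to WT. WT averaged 6.92 ± 0.20 (SD, n = 3) and KO 6.16 ± 0.31 (SD, n = 4), a log2 difference of -0.77 (SE 0.20, 95% interval -1.19 to -0.34), or 1.70-fold. The adjusted p was 0.12, which missed the threshold. ILMN_2947568 read 6.24, 6.59 and 7.05 on the WT arrays, against 5.57, 6.27, 5.59 and 6.26 for KO. Here the groups overlapped, since KO replicates 2 and 4 lay just above WT replicate 1. The difference at this probe was -0.70 (SE 0.24, 95% interval -1.24 to -0.17), with an adjusted p of 0.21.

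The difference at ILMN_2742152 lay between -0.90 and -0.65 with each array left out in turn, and the adjusted p stayed above 0.05 in each. It was -0.46 with no background correction (adjusted p = 0.12) and -0.56 with KO replicate 3 and WT replicate 3 both left out (adjusted p = 0.13). ILMN_2947568 differed by -0.39 and -0.38 in the same fits (adjusted p = 0.27 and 0.38). The difference at ILMN_2742152 passed in a fit that weighted the arrays by their quality (-0.72, adjusted p = 0.035), in which 6.13% of all probes passed. Over the 19 alternative settings the adjusted p of this probe ran from 0.035 to 0.40. No cell type marker passed an adjusted p of 0.05. The summed intensities of the Kupffer cell and stellate cell lists did not overlap between the groups, whereas those of the hepatocyte and erythroid lists did. Of all genes tested, 54.3% lay above 0. Of 10 tested of 13 listed markers of Kupffer cells and macrophages, 9 lay above 0, and their summed intensity ran from 2453 to 3066 in WT and from 3139 to 4771 in KO. The scavenger receptor gene Marco differed most among them (1.71, SE 0.35, adjusted p = 0.088). Hepatocyte markers had 12 of 16 below 0, with sums of 204808 to 211497 in WT and 188868 to 209007 in KO. Erythroid markers had 3 of 4 tested below 0, among them Alas2 of heme synthesis (-0.78, SE 0.16, adjusted p = 0.088). Slc4a1 went the other way (0.38, SE 0.17, adjusted p = 0.32), but lay near the floor. Its log2 intensities were 5.08, 4.88 and 4.84 in WT and 5.22, 5.18, 5.64 and 5.23 in KO. Hbb-b2, which was lower in KO (-0.42, SE 0.17), lay near the floor as well. The erythroid sums, which the bright Hba-a1 probe dominates, were 7556 to 9930 in WT and 6085 to 7652 in KO. The mean centred log2 values of the erythroid list did not overlap (0.020 to 0.293 in WT and -0.205 to -0.009 in KO). Those of the Kupffer cell list did not overlap either (-0.51 to -0.05 in WT and 0.03 to 0.68 in KO). Stellate cell and fibroblast markers had 4 of 9 above 0 and a median of -0.00. Their sums, which the bright Dcn and Acta2 probes dominate, were 3751 to 4722 in WT and 4808 to 6519 in KO, but their mean centred log2 values overlapped (-0.37 to 0.26 in WT and -0.20 to 0.24 in KO). The part of cell composition in the Gadd45a difference was not tested, and in whole tissue fewer cells of a type and less RNA per cell cannot be told apart. Gadd45a lies on chromosome 6, as Ltbr does, with 254 of the 534 tested genes of that chromosome between them.

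Gadd45b, which protects hepatocytes from JNK-driven death, was measured near the floor by probes that disagreed. ILMN_1246065 had log2 intensities of 5.31, 5.57 and 5.54 in WT and 5.21, 5.18, 5.15 and 5.04 in KO, all KO values lying below all WT values. That difference was -0.33 (SE 0.15, 95% interval -0.66 to 0.01, adjusted p = 0.36). At ILMN_2900653 they were 4.85, 5.06 and 6.34 in WT and 5.50, 5.74, 5.03 and 5.56 in KO. WT replicate 3 was the highest there and WT replicate 1 the lowest, below the floor, and the KO values lay between them. This probe differed by 0.04 (SE 0.31, 95% interval -0.64 to 0.73, adjusted p = 0.97), which became 0.51 without WT replicate 3 (adjusted p = 0.28) and -0.24 without WT replicate 1 (adjusted p = 0.82). Over the 17 tested probes, KO lay below WT without overlap at 2, these being ILMN_1246065 and the Gadd45a probe ILMN_2742152, against 6.6% of all tested probes.

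Gadd45g, a family member that inhibits cell growth and that cytokines induce, varied more between samples of 1 genotype than nearly all other probes. At ILMN_2903945 the WT arrays had log2 intensities of 10.34, 9.76 and 12.30, and the KO arrays 11.81, 12.57, 9.26 and 11.97. WT replicates 1 and 2 and KO replicate 3 were low, and WT replicate 3 and KO replicates 1, 2 and 4 were high. The highest array exceeded the lowest 9.91-fold within KO and 5.83-fold within WT. ILMN_2744890 gave 6.74, 6.72 and 9.53 for WT and 8.28, 9.20, 5.68 and 8.35 for KO. The same arrays were low and high at this probe, as they were at the Gadd45b probe ILMN_2900653, with 11.5-fold between the extremes within KO and 7.01-fold within WT.

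At ILMN_2903945 Gadd45g averaged 10.80 ± 1.33 (SD, n = 3) for WT and 11.40 ± 1.47 (SD, n = 4) for KO, a difference of 0.60 (SE 0.71, 95% interval -0.95 to 2.16, adjusted p = 0.76). At ILMN_2744890 they were 7.66 ± 1.62 (SD, n = 3) and 7.88 ± 1.52 (SD, n = 4), a difference of 0.22 (SE 0.78, 95% interval -1.49 to 1.93, adjusted p = 0.93). The intervals span more than a 2-fold change in either direction at ILMN_2744890 and upwards at ILMN_2903945, so these arrays do not settle whether Gadd45g differed with genotype. The differences became 1.35 and 1.15 without WT replicate 3 (adjusted p = 0.36 and 0.45), and 1.32 and 0.95 without KO replicate 3 (adjusted p = 0.23 and 0.47). With both left out, they were 2.07 and 1.88 (adjusted p = 0.0058 and 0.0080), in a fit where 4.74% of all probes passed. These arrays were left out because they stood apart, and they are also extremes of Gadd45g within their groups, so this fit is not independent evidence of a genotype difference. The Gadd45b probe ILMN_2900653 differed by 0.65 in that fit (adjusted p = 0.060). With array weights the differences were 1.41 and 1.02 (adjusted p = 0.13 and 0.30). The difference at ILMN_2903945 fell to 0.08 without WT replicate 2 (adjusted p = 0.99), to 0.21 without KO replicate 2 (0.93) and to 0.37 without WT replicate 1 (0.90).

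**Figure D2:**
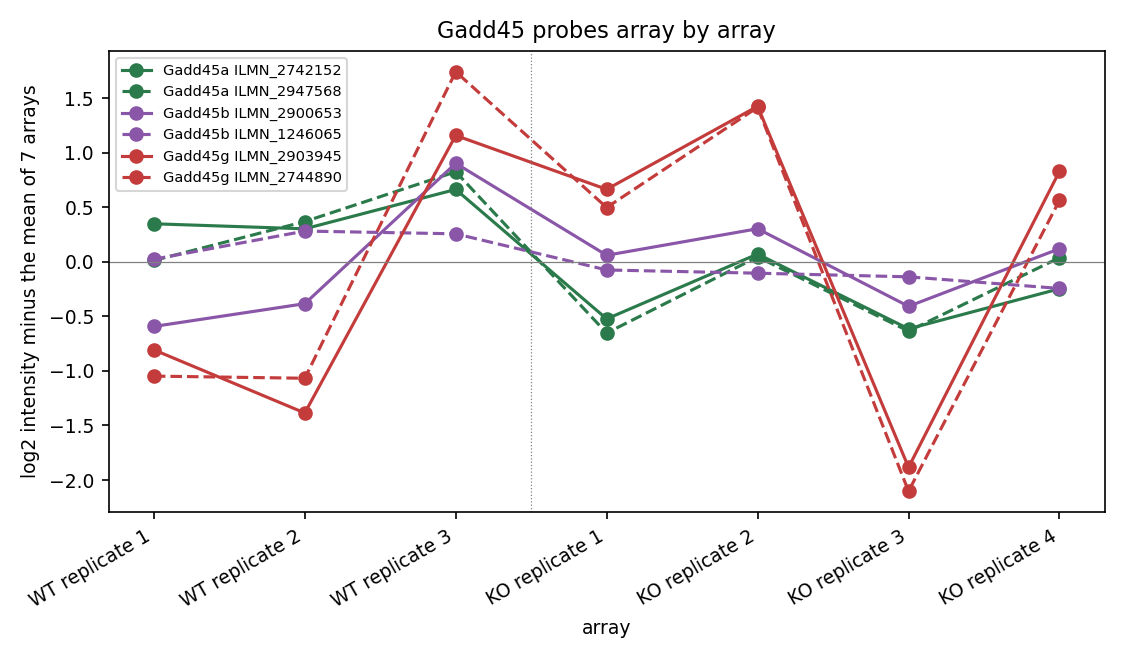
Log2 intensity of the 6 Gadd45 probes minus each probe's mean over the 7 arrays (vertical axis), by array (horizontal axis, WT left of the dotted line). Both Gadd45g lines drop at WT replicates 1 and 2 and at KO replicate 3, whereas the Gadd45a lines have higher means in WT than in KO.

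The standard deviation between samples of 1 genotype, pooled over both, was 1.41 at ILMN_2903945 and 1.56 at ILMN_2744890, against a median of 0.24 over the 18423 tested probes. These ranked as number 7 and number 3 of all tested probes. The tested probes were also split by mean level into 20 bins of about equal size. Within its bin ILMN_2903945 ranked as number 3 of 922 probes, and ILMN_2744890 as number 1 of 921. The Gadd45b probe ILMN_2900653 had 0.56 and ranked as number 13 of the 921 probes in its bin, whereas ILMN_1246065 had 0.11. For Gadd45a the values were 0.27 and 0.40, and the Mdm2, Ccng1, Trp53inp1 and Sesn1 probes lay between 0.27 and 0.51.

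**Figure D3:**
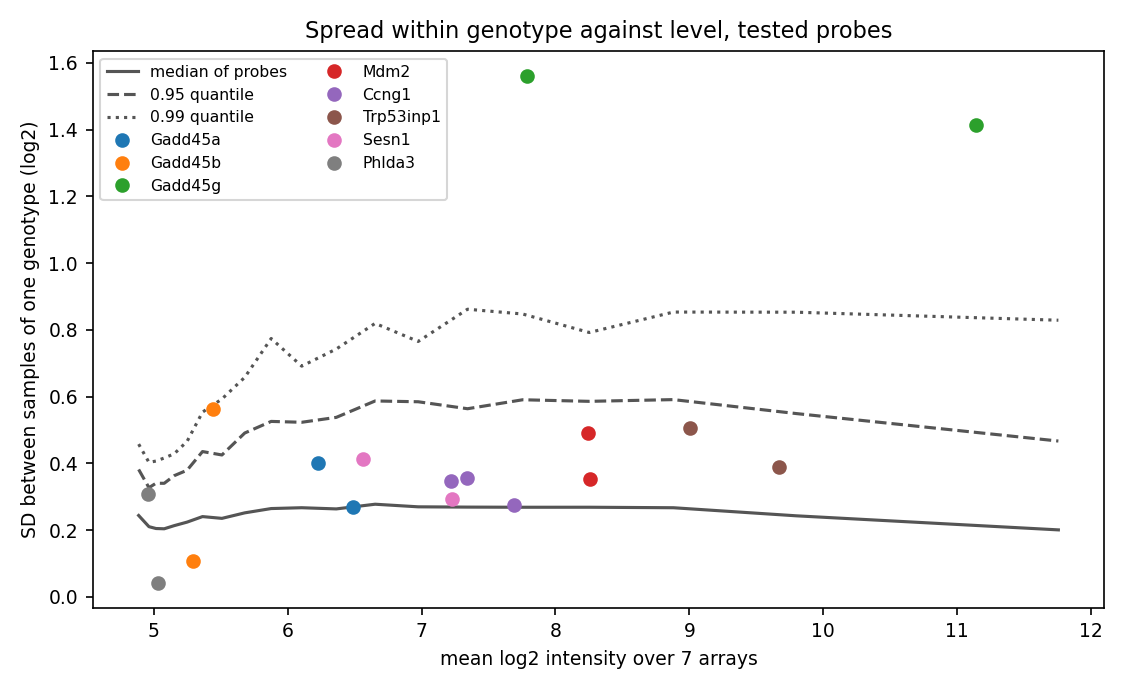
Pooled standard deviation between samples of 1 genotype (vertical axis, log2) against mean log2 intensity over the 7 arrays (horizontal axis) for the 17 tested probes, with lines for the median and the 0.95 and 0.99 quantiles of all tested probes in 20 bins of level. The Gadd45g points, at 1.41 and 1.56, lie above the 0.99 quantile, which is 0.83 and 0.85 in their bins.

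The p53 feedback genes did not pass. Mdm2, which encodes the ligase that degrades p53, had log2 intensities of 8.24, 7.76 and 8.78 in WT and 8.30, 8.50, 8.09 and 8.14 in KO at ILMN_1250774. WT replicate 2 was the lowest and WT replicate 3 the highest, with the KO values between them. The difference was -0.00 (SE 0.23, 95% interval -0.49 to 0.49), and at ILMN_2850753 it was -0.02 (SE 0.28, 95% interval -0.64 to 0.59). At the latter, KO replicate 3 (7.62) and WT replicate 2 (7.70) were the lowest and WT replicate 3 (8.76) the highest. Another Mdm2 probe, ILMN_1229882, was above the floor on 1 array and was not tested.

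Ccng1 encodes cyclin G1, a p53 target that acts back on MDM2 through a phosphatase. Its 3 probes differed by 0.15 (SE 0.20), 0.13 (SE 0.23) and 0.04 (SE 0.22), with adjusted p between 0.79 and 0.95. At ILMN_2710229 the log2 intensities were 7.90, 7.69 and 7.23 for WT and 7.84, 7.999, 7.49 and 7.70 for KO. The lowest values were those of WT replicate 3 and KO replicate 3, and the groups overlapped. At ILMN_2500276, in contrast, KO replicate 3 (7.86) was the highest of the 7 arrays and WT replicate 2 (6.99) the lowest, so the probes of this gene did not order the arrays alike.

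Trp53inp1 encodes a stress protein that promotes p53 activity and autophagy. ILMN_2506012 gave log2 intensities of 10.34, 9.39 and 9.51 for WT and 9.55, 9.86, 9.77 and 9.26 for KO. WT replicate 1 was the highest, and the other WT values lay within the KO range. The difference was -0.14 (SE 0.24, 95% interval -0.66 to 0.39). At ILMN_2971479 it was 0.13 (SE 0.29, 95% interval -0.50 to 0.76), again with WT replicate 1 (9.73) the highest and WT replicate 3 (8.31) the lowest.

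Sesn1 encodes sestrin 1, a p53 target that restrains mTORC1 signalling. ILMN_2654074 gave 6.76, 7.36 and 7.56 for WT and 7.19, 7.44, 7.04 and 7.23 for KO on the log2 scale, the KO values lying between the WT extremes. The difference was -0.00 (SE 0.20, 95% interval -0.45 to 0.44). ILMN_3136744 differed by -0.15 (SE 0.25, 95% interval -0.69 to 0.39), with WT replicate 1 (6.05) the lowest and WT replicate 3 (7.30) the highest. Another Sesn1 probe, ILMN_3059476, was above the floor on 0 arrays and gives no fold.

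Phlda3, whose product blocks AKT at the membrane, lay at the floor. At ILMN_2628567 the log2 intensities were 4.94, 4.998 and 4.95 in WT, all below the floor, and 5.12, 5.05, 5.12 and 5.03 in KO, all above it. The means of this probe differed by 0.12 (SE 0.14, 95% interval -0.20 to 0.43, adjusted p = 0.78). The probe passed the filter only through the KO arrays and spanned 1.14-fold in all. Nothing is therefore read from its direction or its lack of overlap, which 6.44% of all tested probes shared in that direction. ILMN_2923607 was above the floor on 2 arrays of each genotype and differed by -0.09 (SE 0.21, adjusted p = 0.89).

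**Figure D4:**
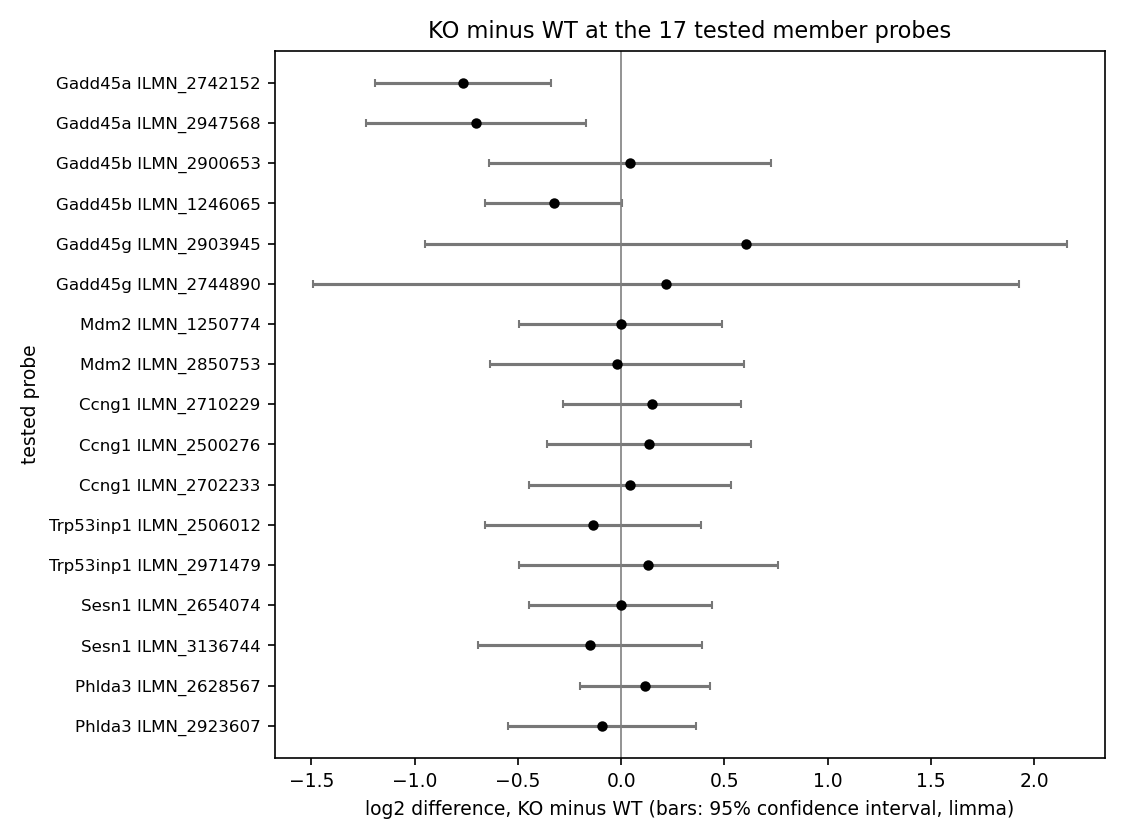
Log2 difference, KO minus WT (horizontal axis), with its 95% confidence interval from limma, for each of the 17 tested probes (vertical axis). The intervals of both Gadd45a probes lie below 0, from -1.24 to -0.17 at their outer limits, and those of the other 15 probes include 0.

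Of 87 other genes of the p53 and GADD45 pathways, 65 were tested at their brightest probe. None passed an adjusted p of 0.05, where 0.0695% of the 12958 genes or unnamed probes tested did. Their median log2 difference was 0.13, against 0.03 for all genes tested, and 45 of the 65 lay above 0, against 54.3% of all genes. At an unadjusted p under 0.05 there were 8 higher and 4 lower in KO, where all genes gave 8.33% higher and 6.58% lower. The smallest adjusted p among the 65 was 0.21. Those above 0 include Map3k4 and Cdk1, which passed the filter only through KO arrays, so nothing is read from the direction of these genes.

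Regulators of p53 had 10 of 12 tested genes above 0 and a median of 0.15. Those of smallest p were Hipk2 (0.56, SE 0.20), which encodes a kinase that phosphorylates p53, the acetyltransferase gene Ep300 (0.70, SE 0.28) and Trp53bp1 (0.41, SE 0.18), whose product marks DNA breaks. Mdm4, a p53 inhibitor gene related to Mdm2, was not among the tested genes. The 2 genes below 0 were Kat5 (-0.57, SE 0.31), an acetyltransferase gene, and Cdkn2a (-0.18, SE 0.16), whose ARF product blocks MDM2.

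Targets of cell cycle arrest had 5 of 7 above 0 and a median of 0.20. Cdkn1a, the inhibitor p21 that holds hepatocytes before S phase, had log2 intensities of 10.31, 10.64 and 10.54 for WT and 10.30, 10.53, 10.06 and 10.40 for KO. The groups overlapped, with KO replicate 3 the lowest, and the difference was -0.17 (SE 0.17, adjusted p = 0.69). The differences of smallest p were 0.44 (SE 0.21) for the antiproliferative gene Tob1, 0.30 (SE 0.20) for the cyclin G2 gene Ccng2 and 0.25 (SE 0.17) for the kinase gene Plk2. Plk3 differed by -0.05 (SE 0.30), and Btg2 was not among the tested genes.

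Apoptosis targets had 9 of 12 above 0 and a median of 0.15. On the higher side were Apaf1 (0.47, SE 0.19), of the apoptosome, Bbc3 (0.43, SE 0.18), which encodes PUMA, and the autophagy regulator gene Dram1 (0.39, SE 0.18). On the lower side were the death receptor gene Fas (-0.50, SE 0.21), Ei24 (-0.47, SE 0.19) and Tnfrsf10b (-0.07, SE 0.26). Fas had log2 intensities of 8.07, 7.72 and 7.71 in WT and 7.30, 7.78, 6.90 and 7.35 in KO, with KO replicate 2 inside the WT range. Its adjusted p was 0.30, and that of Apaf1 0.28. Bax was not among the tested genes.

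Targets of DNA repair and metabolism had 9 of 12 above 0 and a median of 0.14, the differences above 0 of smallest p being 0.45 (SE 0.17) for the translesion polymerase gene Polk and 0.26 (SE 0.18) for the damage sensor gene Xpc. Below 0 was Sesn2, the paralog of Sesn1 (-0.28, SE 0.15). Partners of the GADD45 proteins had 5 of 10 above 0 and a median of 0.08. Among them the DNA glycosylase gene Tdg, whose product acts with GADD45A in active demethylation, differed by -0.59 (SE 0.27) and the retinoblastoma gene Rb1 by 0.41 (SE 0.17). The GADD45-activated kinase gene Map3k4 differed by 0.28 (SE 0.15). It lay at the floor, at 4.88, 4.83 and 4.64 in WT and 5.02, 5.01, 5.08 and 5.16 in KO. Map3k4 and Cdk1, both counted above 0, were below the floor on all WT arrays and passed the filter only through KO arrays. Nothing is therefore read from their direction.

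Stress genes of the GADD type and of the integrated stress response had 7 of 13 above 0 and a median of 0.00. Ddit3, also called Gadd153, differed by 0.13 (SE 0.20), and Ppp1r15a, also called Gadd34, by 0.10 (SE 0.20). The mTORC1 inhibitor gene Ddit4 differed by -0.62 (SE 0.27), with log2 intensities of 8.35, 8.23 and 8.63 in WT and 7.45, 8.58, 7.38 and 7.72 in KO. KO replicate 2 lay inside the WT range, as it did for Fas. Cebpb differed by 0.37 (SE 0.17), Egr1 by -0.69 (SE 0.40) and Atf4 by 0.54 (SE 0.32).

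**Figure D5:**
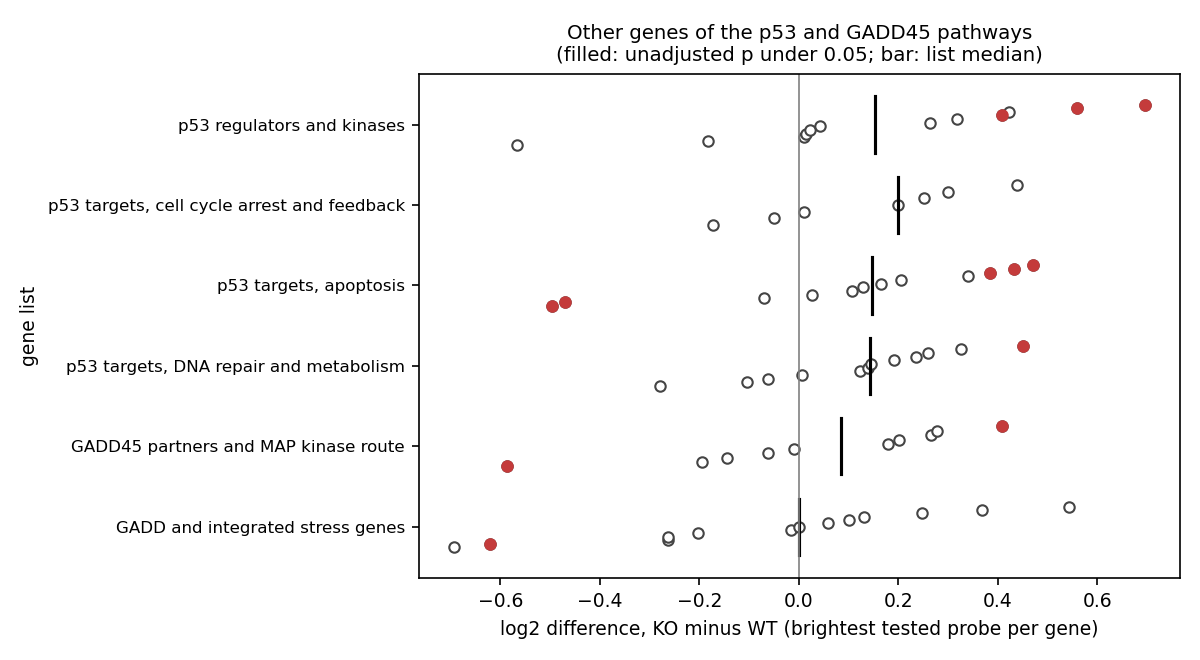
Log2 difference, KO minus WT (horizontal axis), of each tested gene in the 6 lists of other p53 and GADD45 pathway genes (vertical axis), with bars at the list medians and filled points at an unadjusted p under 0.05. The medians lie between 0.00 and 0.20, and no gene passed an adjusted p of 0.05.

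The genes whose pattern over the 7 arrays was most like each member were taken from 10225 named genes by Pearson's r of log2 intensity, as a description. For Gadd45a these were Vwa8 (r = 0.969), Elac1 (0.966) and Nemf (0.965). Their means were lower in KO by 0.33, 0.29 and 0.60, which follows from choosing genes like a probe that was lower in KO. Nearest to Gadd45g were Mrtfb (0.985), the nucleoporin gene Nup88 (0.982) and the ubiquitin ligase gene Mib1 (0.982), but none of these spanned as wide a range. Their highest array exceeded the lowest by 1.24-fold to 1.71-fold, against 9.91-fold for Gadd45g. Mrtfb, with 1.71-fold, lay at the floor (4.53 to 5.30), where changes are compressed. The nearest to the Gadd45b probe ILMN_2900653 were Stk11 (0.986), Stk19 (0.985) and Nr1i3 (0.980), which encodes the nuclear receptor CAR. Nr1i3 had log2 intensities of 5.81, 6.02 and 8.02 in WT and 6.92, 6.93, 5.89 and 7.09 in KO, with WT replicate 3 the highest and WT replicates 1 and 2 and KO replicate 3 the lowest. For Mdm2 the nearest were Sbno2 (0.981), Dgkh (0.981) and Stat2 (0.953), and for Ccng1 they were Tmem47 (0.987), Cd81 (0.982) and Gnb5 (0.976). Utp14a (0.947) was nearest to Trp53inp1 and Plxdc1 (0.963) to Sesn1. Nearest to the Phlda3 probe ILMN_2628567 was Prune1 (0.996), with log2 intensities of 7.89, 8.34 and 8.01 in WT and 9.503, 8.74, 9.44 and 8.66 in KO. That Phlda3 probe lay at the floor and passed the filter only through its KO arrays, so nothing is read from this likeness. With so many genes and 7 arrays, high values of r arise among unrelated genes.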

How the data were processed

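Total RNA of liver was labelled with biotin and hybridised to Illumina bead arrays, per the labels' protocols. Each deposited value is a linear intensity of 1 probe, already normalized between arrays by the authors, since the quantiles of the 7 columns coincide. Partek was used, per the submitters' processing notes. Its version and steps are not given in the sources used here. A scanner table with 14 columns that the labels tie to no sample was not used.

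Background was removed from these deposited intensities with the normexp method of limma 3.58.1 in R 4.3.3 (saddle, offset 16), and log2 was taken. For the floor, a normal curve was centred on the commonest intensity, 87.6, with its width set by the dimmer values, and its 0.95 quantile was used. Probes brighter than that on 3 or more arrays were kept. KO was compared with WT at every kept probe by lmFit and eBayes of limma, two-sided, with Benjamini-Hochberg adjustment over 18423 probes. The other pathway genes and markers used the brightest kept probe per gene, 12958 in all. The procedure was tested on simulated data. Probe sequences were not used.

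The members, lists and tests were chosen with earlier results of these data known. Named genes were all member probes, up to 3 genes of smallest p per direction from each pathway list with fixed additions, and the 3 genes most like each member. Not all genes that this rule allowed are printed.

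Alternatives changed the background correction, normalization, filter, choice of probe, prior, array weights, threshold and replicate block, and left out arrays.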

Additional observations from a re-analysis of the deposited data

How the results depend on the processing

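The settings that changed only the filter, choice of probe, prior or threshold leave each difference as it is, so their values kept direction by construction. The replicate block gave the same differences as the fit without KO replicate 4. Over all 19 alternative settings, these included, 270 of 311 differences of the 17 tested probes kept their direction. Among them were all those of both Gadd45a probes, of Gadd45b ILMN_1246065 and of Gadd45g ILMN_2903945. Those of Phlda3 ILMN_2628567 did too, but this probe passed the filter only through its KO arrays, so nothing is read from its direction. No member passed in 17 of the settings. With array weights 1 did (Gadd45a ILMN_2742152), as did 2 other pathway genes (Apaf1, 0.63, and Atf4, 0.92) and 1130 of all probes. With KO replicate 3 and WT replicate 3 both left out, 2 passed (both Gadd45g probes), with 1 other pathway gene (Atf4, 1.15) and 792 of all probes. All probes gave 12 calls, and 3 to 25 with 1 array left out in turn, 25 without WT replicate 3, 7 without KO replicate 3 and 3 without WT replicate 2 or KO replicates 1, 2 or 4. There were 59 calls with no filter, 2 for probes above the floor on all 7 arrays and 180 at an adjusted p under 0.10. The same replicate numbers did not pair the samples (correlations of deviations -0.19, -0.04 and -0.28), and with the replicate block 5 of all probes passed and no member did. Under this block Mdm2 was 0.039 at ILMN_1250774 and 0.011 at ILMN_2850753. Uncalled differences near 0 changed sign elsewhere too, and the cause was not tested. Gadd45b ILMN_2900653 was -0.013 with no background correction and -0.0064 with an offset of 50. With array weights Mdm2 was 0.23 and 0.34, and Ccng1 ILMN_2702233 -0.017. With KO replicate 3 and WT replicate 3 both left out, Mdm2 was 0.31 and 0.44, Ccng1 -0.11 (ILMN_2500276) and -0.046 (ILMN_2702233), Trp53inp1 ILMN_2971479 -0.20, Sesn1 0.22 (ILMN_2654074) and 0.24 (ILMN_3136744) and Phlda3 ILMN_2923607 0.11. With 1 array left out in turn, Gadd45b ILMN_2900653 ran from -0.24 to 0.51 and Gadd45g ILMN_2744890 from -0.25 to 1.15. Mdm2 ran from -0.25 to 0.26 (ILMN_1250774) and from -0.30 to 0.23 (ILMN_2850753). Ccng1 ran from -0.039 to 0.30 (ILMN_2710229), -0.021 to 0.35 (ILMN_2500276) and -0.15 to 0.15 (ILMN_2702233). The range was -0.31 to 0.16 (ILMN_2506012) and -0.18 to 0.53 (ILMN_2971479) for Trp53inp1, -0.24 to 0.16 (ILMN_2654074) and -0.45 to 0.17 (ILMN_3136744) for Sesn1, and -0.29 to 0.034 for Phlda3 ILMN_2923607. Phlda3 and Gadd45b lay near the floor, where changes are compressed. Among the other pathway genes named, the probes of Cdkn2a, Polk, Sesn2, Bbc3, Dram1, Ddit3 and Map3k4 also lay near it.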
